A study of Homo sapiens with 12 samples.

Results

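Messenger RNA of 10 genes of the urea cycle and of glutamine metabolism was followed in HepG2 cells, a human liver cancer line, that had been given nobiletin (NOB), sorafenib (SOR), both (SOR+NOB) or vehicle (Control). The genes were taken by name from a count table of 58735 genes and are NAGS, CPS1, OTC, ASS1, ASL, ARG1, SLC25A13, SLC25A15, GLUL and GLS2, and all 10 were among the 17115 genes with enough counts to be tested. The SOR+NOB cells received 5 µM nobiletin with 2 µM sorafenib, the NOB cells 5 µM nobiletin, the SOR cells 2 µM sorafenib and the Control cells vehicle, with 3 libraries in each group. Nobiletin is a polymethoxylated flavone of citrus peel, and sorafenib, which blocks several kinases, is a drug for liver cancer. All groups are a single cell line in culture at a single dose of each agent, the labels give no duration of treatment, and nothing in them says that the libraries of a group came from separate cultures, so p-values measure only the spread between these libraries.

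The urea cycle turns ammonia, which is toxic, into urea, and in the body it runs almost wholly in hepatocytes. NAGS makes N-acetylglutamate, the activator that CPS1 needs to form carbamoyl phosphate in the mitochondrion, OTC joins that product to ornithine, ASS1 and ASL in the cytosol build and split argininosuccinate, and ARG1 splits arginine into urea and ornithine. SLC25A15 carries ornithine and citrulline across the inner mitochondrial membrane, and SLC25A13 (citrin) exports the aspartate that ASS1 uses. In the liver lobule the cycle enzymes are richest in periportal hepatocytes, which also hold the glutaminase GLS2, whereas glutamine synthetase, GLUL, is confined to the hepatocytes around the central vein, where it takes up ammonia that the cycle left.

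The steps of the pathway moved apart. ARG1, very low in Control cells, rose with sorafenib, as did CPS1 and GLUL, and each was lower in SOR+NOB than in SOR cells. OTC, also very low in Control cells, was higher in SOR cells than in the other groups. It entered the test only through the SOR libraries, so this is a description. ASL and NAGS fell under each of the 3 treatments. ASS1 rose in SOR+NOB cells, the ornithine carrier SLC25A15 rose under each treatment, and GLS2 passed no test. CPM values (counts per 1000000 counts of the library) are scaled by the trimmed mean of M values, differences are log2 ratios of the first named group over the second with their standard error (SE), and a gene is said to have risen or fallen where edgeR's quasi-likelihood test, adjusted by Benjamini-Hochberg over all 17115 genes, gave p under 0.05.

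Library totals ran from 17945656 to 25669823 counts. The first SOR+NOB library stood apart: 20138 genes had a count in it, against 22542 to 25014 in the other libraries, and the chi-square of its counts against the other SOR+NOB libraries was 27.6 and 19.2 per degree of freedom, against 2.78 to 5.58 in the other pairs of replicates. Values without it are given where they matter. Of the hepatocyte markers 13 of 13, ALB, APOA1 and TTR among them, averaged at least 1 CPM in each group. Markers listed for other cell types were also present: 3 of 4 bile duct genes averaged at least 1 CPM in each group, as did 1 of 3 immune genes, 1 of 4 stellate or fibroblast genes and 1 to 3 of 3 endothelial genes. SOX9 averaged 398 CPM, EPCAM 139.6 CPM, KRT19 49.6 CPM and LYZ 609 CPM in Control cells, whereas CD68 had 2 to 6 counts per group. All libraries are of HepG2 cells, so counts of these listed genes do not show that other cell types were present. In a bulk sample, fewer cells with a transcript and less of it per cell cannot be told apart.

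**Figure D1:**
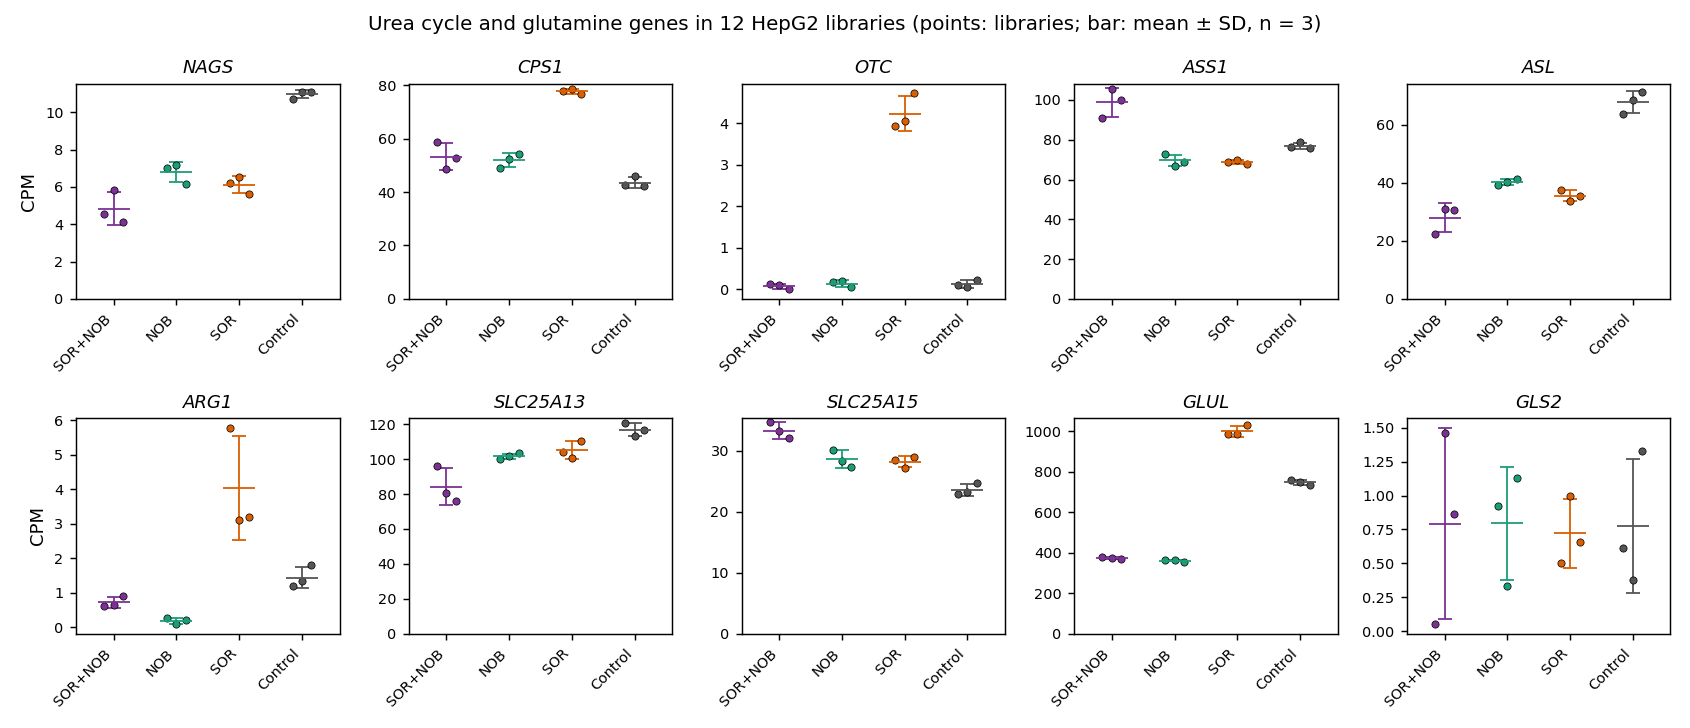
CPM of each of the 10 genes by treatment, on linear axes, with a point for each library, a horizontal bar for the mean and an error bar for the SD (n = 3). OTC lies near 0 in every group but SOR, GLUL lies near 374 and 361 CPM in the SOR+NOB and NOB cells against 998 CPM in SOR and 746 CPM in Control cells, and GLS2 overlaps in all 4 groups.

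Promoters are shown of the 2 genes with the largest log2 differences of SOR cells over Control and of the 2 that fell under every treatment. The windows are the 250 bases before the RefSeq start in GRCh38.p14, read on the coding strand. Capitals mark matches, on either strand, to any of the letters searched, namely CAAAGTCC for HNF4, AGGTCA for nuclear receptors, TTGCNNAA for C/EBP, CACGTG for an E-box, CCAAT for the box of that name, GGGCGG for Sp1, TGACGTCA for a cAMP response element and TATAAA for a TATA box. OTC lies at chrX:38352354-38352603 on the plus strand, ARG1 at chr6:131572976-131573225 on the plus strand, ASL at chr7:66075569-66075818 on the plus strand and NAGS at chr17:44004372-44004621 on the plus strand.
OTC: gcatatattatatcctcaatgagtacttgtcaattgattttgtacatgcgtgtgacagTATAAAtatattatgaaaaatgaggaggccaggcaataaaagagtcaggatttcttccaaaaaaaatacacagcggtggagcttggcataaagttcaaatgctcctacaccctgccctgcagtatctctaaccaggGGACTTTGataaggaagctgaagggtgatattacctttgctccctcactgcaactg
ARG1: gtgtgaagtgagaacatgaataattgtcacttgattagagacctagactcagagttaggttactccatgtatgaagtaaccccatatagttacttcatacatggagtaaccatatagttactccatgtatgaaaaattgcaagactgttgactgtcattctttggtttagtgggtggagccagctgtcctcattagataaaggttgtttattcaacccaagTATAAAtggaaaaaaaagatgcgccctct
ASL: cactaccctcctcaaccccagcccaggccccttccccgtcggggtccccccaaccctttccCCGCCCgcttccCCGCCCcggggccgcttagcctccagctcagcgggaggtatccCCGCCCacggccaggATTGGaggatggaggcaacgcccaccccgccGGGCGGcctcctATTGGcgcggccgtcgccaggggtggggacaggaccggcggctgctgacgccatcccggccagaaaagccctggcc
NAGS: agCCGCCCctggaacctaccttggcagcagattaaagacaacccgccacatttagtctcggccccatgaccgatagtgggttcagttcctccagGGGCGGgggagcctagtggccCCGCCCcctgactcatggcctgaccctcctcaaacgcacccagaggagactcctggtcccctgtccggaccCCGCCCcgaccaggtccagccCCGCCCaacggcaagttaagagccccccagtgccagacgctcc

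The OTC window holds the HNF4 letters once, on the minus strand at -56 to -49 from the start, and TATAAA at -192 to -187. HNF4A is a hepatocyte nuclear receptor known to drive OTC. The HNF4 letters occur in 1.02% of all 35116 RefSeq windows of this length, and of the 14 windows of the 10 genes this is the only one that holds them. The ARG1 window holds TATAAA at -29 to -24 and no other match, and 10.7% of all windows hold those letters. The OTC and ARG1 windows are 40.4% and 37.6% G and C. The ASL and NAGS windows are 74.0% and 65.6% G and C, with 4 and 5 matches to the Sp1 letters, which 42.6% of all windows hold, and ASL also has 2 matches to CCAAT, which 32.0% hold. No match to the nuclear receptor (12.1% of all windows), C/EBP (9.05%) or cAMP response element (1.65%) letters was found in any of the 14, and E-box letters (6.34%) were found in a window each of CPS1, ASS1 and SLC25A13. A match is a description of letters, not a bound site. In the annotation of the table the genes begin inside the windows shown, OTC at 38352545, ARG1 at 131573144, ASL at 66075798 and NAGS at 44004546, because GENCODE 29 lists transcripts that start upstream of the RefSeq ones. By those starts the HNF4 letters of OTC and the TATAAA of ARG1 lie inside the annotated gene. So do the Sp1 letters of NAGS at -64 to -59 and at -43 to -38.

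Set against Control, the number of the 10 genes called was 8 in SOR+NOB cells, 7 in NOB cells and 8 in SOR cells. Over all tested genes 64.2% were called in SOR+NOB cells (32.2% higher and 32.0% lower), 38.2% in NOB cells (18.9% higher and 19.2% lower) and 41.0% in SOR cells (21.7% higher and 19.3% lower). The 8 calls in SOR+NOB cells were 3 higher and 5 lower, the 7 in NOB cells 2 higher and 5 lower, and the 8 in SOR cells 5 higher and 3 lower. The 8 in SOR cells include OTC, which entered the test only through the SOR libraries, so its call supports nothing further. The median log2 difference of the 10 genes was -0.68 in SOR+NOB, -0.17 in NOB and 0.07 in SOR cells, against -0.02, 0.01 and 0.00 over all tested genes. The 3 comparisons use the same Control libraries, and the 10 genes were chosen with earlier results of these data known.

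**Figure D2:**
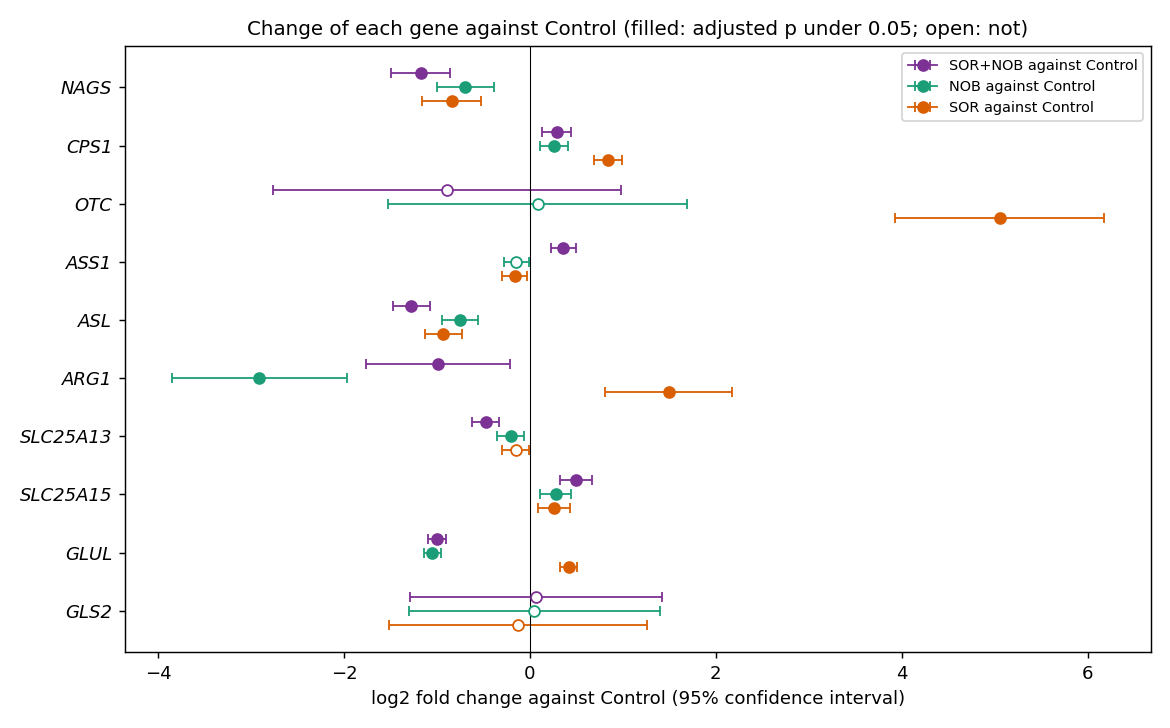
Log2 fold change of each gene against Control in SOR+NOB, NOB and SOR cells, with 95% confidence intervals from the edgeR fit; filled points have an adjusted p under 0.05. OTC in SOR cells (5.05) and ARG1 in NOB cells (-2.91) lie farthest from 0, and the intervals of GLS2 cross 0 in all 3 comparisons. OTC entered the test only through the SOR libraries.

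OTC (chromosome X, 38352545 to 38421450, plus strand) encodes ornithine transcarbamylase, the mitochondrial enzyme that makes citrulline. Its counts were 2, 2 and 0 in the SOR+NOB libraries, 4, 4 and 1 in the NOB libraries, 94, 73 and 93 in the SOR libraries, and 2, 1 and 5 in the Control libraries. Every SOR library lay above every library of the other 3 groups, which overlapped one another. The count of 0 allows up to 0.136 CPM in that library (3 counts). OTC averaged 4.23 ± 0.43 CPM in SOR cells and 0.122 ± 0.096 CPM in Control cells (SD, n = 3 each), a log2 difference of 5.05 ± 0.54 (SE). Summed over libraries, the ratio of SOR to Control was 34.6, with an exact 95% interval from counting of 17.3 to 81.0. OTC entered the test only because the 3 SOR libraries had 10 counts or more. A difference of SOR cells from the other groups was therefore a condition of its being tested, and though OTC was called in each comparison that uses SOR cells and in the interaction, these values are given as a description, with no p.

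OTC stayed low in cells that had nobiletin beside sorafenib. The log2 difference of SOR+NOB from SOR cells was -5.94 ± 0.60, and that of NOB from SOR cells was -4.97 ± 0.53. Against Control the differences of SOR+NOB (-0.89, 95% interval -2.76 to 0.98) and NOB cells (0.09, -1.52 to 1.69), and that of SOR+NOB from NOB cells (-0.98, -2.81 to 0.86), did not pass the test, with under 10 counts in each of these libraries. Without the first SOR+NOB library the difference of SOR+NOB from SOR was -6.42.

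ARG1 (chromosome 6, 131573144 to 131584332, plus strand) encodes the liver arginase that releases urea. It had 11, 15 and 20 counts in the SOR+NOB libraries, 6, 2 and 5 in the NOB libraries, 138, 56 and 63 in the SOR libraries and 27, 28 and 39 in the Control libraries. The 4 groups did not overlap in any pair, in the order NOB, SOR+NOB, Control and SOR from low to high. Nobiletin lowered it by a log2 difference of -2.91 ± 0.45 (edgeR adjusted p = 1.88e-05), to 0.183 ± 0.080 CPM in NOB cells against 1.44 ± 0.32 CPM in Control cells. Sorafenib raised it by 1.49 ± 0.33 (adjusted p = 0.000763), to 4.03 ± 1.51 CPM in SOR cells. The first SOR library was higher than the other two, and without it the SOR difference was 1.14 (adjusted p = 0.0219).

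With both agents ARG1 stood between the single treatments. SOR+NOB cells differed from SOR cells by -2.48 ± 0.35 (edgeR adjusted p = 2.59e-06) and from NOB cells by 1.93 ± 0.49 (adjusted p = 0.00182). Their difference from Control, -0.99 ± 0.37 (adjusted p = 0.0254), was not called without the third Control library (adjusted p = 0.104) or without the second SOR+NOB library (adjusted p = 0.0697). MED23, a Mediator subunit on the opposite strand, overlaps the ARG1 gene with 1312 to 1728 counts per library. None of the 1965 exonic bases of ARG1 lies in an exon of MED23, and MED23 differed from Control by 0.19 in SOR+NOB cells (edgeR adjusted p = 0.029), and by 0.07 in NOB and 0.15 in SOR cells, neither past the test.

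CPS1 (chromosome 2, 210477682 to 210679107, plus strand), carbamoyl phosphate synthetase of the mitochondrion, had 58.6, 48.5 and 52.6 CPM in the SOR+NOB libraries, 49.1, 52.6 and 54.4 CPM in the NOB libraries, 77.8, 78.7 and 76.8 CPM in the SOR libraries, and 42.5, 45.9 and 42.1 CPM in the Control libraries. All libraries of the 3 treated groups were above all Control libraries, and the SOR libraries above all others. Sorafenib raised CPS1 1.79-fold over Control (log2 0.84 ± 0.07, edgeR adjusted p = 3.55e-09). The rises were 1.22-fold in SOR+NOB cells (0.29 ± 0.07, adjusted p = 0.00174) and 1.20-fold in NOB cells (0.26 ± 0.07, adjusted p = 0.0077), and the NOB call was lost without the third NOB library (adjusted p = 0.0539). Without the first SOR+NOB library, the highest of its group, the difference of SOR+NOB from Control was 0.21. SOR+NOB and NOB cells differed by 0.03 (95% interval -0.12 to 0.18), which did not pass the test.

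NAGS (chromosome 17, 44004546 to 44009063, plus strand), which supplies the activator of CPS1, went the other way. It had 4.56, 5.84 and 4.12 CPM in the SOR+NOB libraries, 7.03, 7.16 and 6.17 CPM in the NOB libraries, 6.19, 6.55 and 5.64 CPM in the SOR libraries, and 10.7, 11.1 and 11.1 CPM in the Control libraries. No treated library reached the lowest Control library. NAGS fell by 1.17 on the log2 scale in SOR+NOB (SE 0.15, edgeR adjusted p = 7.38e-07), by 0.69 in NOB (SE 0.15, adjusted p = 0.000674) and by 0.84 in SOR cells (SE 0.15, adjusted p = 9.82e-05). SOR+NOB cells were also below NOB cells by a log2 difference of -0.48 (adjusted p = 0.0115), a call lost without the third SOR+NOB library (adjusted p = 0.065), whereas the difference of SOR+NOB from SOR, -0.33, did not pass (adjusted p = 0.0745), but did without the second SOR+NOB library (adjusted p = 0.0158).

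ASL (chromosome 7, 66075798 to 66093558, plus strand), argininosuccinate lyase, had 22.2, 31.1 and 30.6 CPM in the SOR+NOB libraries, 39.4, 40.1 and 41.4 CPM in the NOB libraries, 37.5, 33.7 and 35.4 CPM in the SOR libraries, and 63.9, 68.6 and 71.3 CPM in the Control libraries. The groups did not overlap, with SOR+NOB lowest and Control highest. ASL fell to 0.413 of its Control level in SOR+NOB (log2 -1.27 ± 0.10, edgeR adjusted p = 1.41e-10), 0.593 in NOB (-0.75 ± 0.09, adjusted p = 9.65e-07) and 0.524 in SOR cells (-0.93 ± 0.10, adjusted p = 4.12e-08). The first SOR+NOB library was the lowest, and without it the SOR+NOB difference was -1.14. A readthrough gene shares 17.6% of the exonic bases of ASL but had 7 counts over all 12 libraries, and its pseudogene ASLP1 had 160 counts against 11274 for ASL.

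ASS1 (chromosome 9, 130444929 to 130501274, plus strand), argininosuccinate synthetase, acts just before ASL and did not follow it. It had 90.9, 105.5 and 100.2 CPM in the SOR+NOB libraries, 72.8, 67.0 and 69.1 CPM in the NOB libraries, 68.9, 69.8 and 67.6 CPM in the SOR libraries, and 76.5, 78.8 and 75.7 CPM in the Control libraries. All SOR+NOB libraries were above, and all NOB and SOR libraries below, the Control libraries. In SOR+NOB cells ASS1 rose 1.28-fold (log2 0.36 ± 0.06, edgeR adjusted p = 3.2e-05). In SOR cells it fell slightly (-0.16 ± 0.06, adjusted p = 0.0458), but of 12 fits that left out a library this call held only in those without the first or the second SOR+NOB library, and adjusted p reached 0.152 in the other 10. The NOB difference was -0.14 ± 0.06 and did not pass (adjusted p = 0.0781), and it did without the first SOR+NOB library (adjusted p = 0.0147). The 11 pseudogenes of ASS1 in the table had 193 counts in all, against 20474 for ASS1.

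Of the carriers, SLC25A15 (chromosome 13, 40789412 to 40810111, plus strand), which exchanges ornithine for citrulline, ranged over 32.1 to 34.8 CPM in SOR+NOB, 27.4 to 30.2 CPM in NOB, 27.2 to 29.04 CPM in SOR and 22.9 to 24.7 CPM in Control libraries. It rose by 0.50 ± 0.08 in SOR+NOB (edgeR adjusted p = 1.39e-05), 0.28 ± 0.08 in NOB (adjusted p = 0.00845) and 0.26 ± 0.08 in SOR cells (adjusted p = 0.0135). The NOB call was lost without the first NOB library (adjusted p = 0.0548) and the SOR call without the first Control library (adjusted p = 0.0542). SOR+NOB cells were above SOR cells by 0.24 (adjusted p = 0.0137), a call lost without the second SOR library (adjusted p = 0.0734). They were above NOB cells by 0.22 (adjusted p = 0.0228), which was not called without the first SOR+NOB library (adjusted p = 0.0572) without the second NOB library (adjusted p = 0.0747) or without the third (adjusted p = 0.116).

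SLC25A13 (chromosome 7, 96120220 to 96322147, minus strand), the aspartate and glutamate carrier citrin, ranged over 75.9 to 96.1 CPM in SOR+NOB, 99.9 to 103.3 CPM in NOB, 100.85 to 110.6 CPM in SOR and 113.2 to 121.0 CPM in Control libraries. It fell by 0.48 on the log2 scale in SOR+NOB (SE 0.07, edgeR adjusted p = 4.51e-06). Without the first SOR+NOB library, the highest of its group, that log2 difference was -0.59. The fall of 0.20 in NOB cells (SE 0.07, adjusted p = 0.0256) was lost in 4 of 12 fits that left out a library, those without the first Control library (adjusted p = 0.0959), the third (adjusted p = 0.0508), the first NOB library (adjusted p = 0.085) or the second (adjusted p = 0.0584). The SOR difference, -0.15, did not pass (adjusted p = 0.0894), and did without the first SOR+NOB library (adjusted p = 0.00477).

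GLUL (chromosome 1, 182381704 to 182392206, minus strand) encodes glutamine synthetase, which joins ammonia to glutamate, and had the highest FPKM of the 10 in every group. It had 380.3, 372.7 and 368.8 CPM in the SOR+NOB libraries, 365.2, 360.9 and 355.7 CPM in the NOB libraries, 983.0, 983.5 and 1029 CPM in the SOR libraries, and 756.4, 749.5 and 733.6 CPM in the Control libraries. Both groups with nobiletin lay far below Control and SOR above it. GLUL fell to 0.501 of its Control level in SOR+NOB (log2 -0.997 ± 0.045, edgeR adjusted p = 1.98e-14) and to 0.483 in NOB cells (-1.05 ± 0.04, adjusted p = 3.03e-14), and rose 1.34-fold in SOR cells (0.42 ± 0.04, adjusted p = 6.63e-08).

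SOR+NOB and NOB cells differed in GLUL by 0.05 on the log2 scale (95% interval -0.04 to 0.14), which did not pass the test (edgeR adjusted p = 0.321). SOR+NOB cells were below SOR cells (log2 -1.42 ± 0.05, adjusted p = 4.28e-17). The 4 pseudogenes of GLUL in the table had 3 counts together.

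GLS2 (chromosome 12, 56470944 to 56488414, minus strand), the liver-type glutaminase that frees ammonia from glutamine, had 1, 34 and 19 counts in the SOR+NOB libraries, 22, 7 and 28 in the NOB libraries, 12, 18 and 13 in the SOR libraries, and 14, 8 and 29 in the Control libraries. The groups overlapped and no comparison passed the test. The 95% intervals of the log2 difference from Control ran from -1.29 to 1.42 in SOR+NOB, -1.30 to 1.39 in NOB and -1.51 to 1.26 in SOR cells, and a change of 2-fold in either direction lies inside each of them. Counting error alone gave narrower intervals, with a ratio to Control of 1.09 (exact 95% interval 0.731 to 1.63) in SOR+NOB, 1.05 (0.707 to 1.56) in NOB and 0.897 (0.584 to 1.37) in SOR cells. The 95% intervals of the fit also carry the spread between libraries. Of its 4141 exonic bases 77.1% lie in exons of SPRYD4, on the opposite strand, which fell by 1.77 on the log2 scale in SOR+NOB (adjusted p = 1.08e-10) and by 0.57 in NOB cells (adjusted p = 0.000672). The strand setting of the counting is not given in the sources used here, so reads over the shared bases cannot be told apart.

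Levels can be set against each other only per length, as the authors' FPKM (fragments scaled by gene length and library size). The level and rank of GLS2 carry the limit given above for its exonic bases shared with SPRYD4. In SOR+NOB cells the order of mean FPKM was GLUL 40.6, ASS1 31.8, SLC25A13 22.3, SLC25A15 17.8, ASL 8.57, CPS1 4.84, NAGS 1.68, ARG1 0.358, GLS2 0.186 and OTC 0.0371. In NOB cells it was GLUL 39.5, SLC25A13 27.1, ASS1 22.6, SLC25A15 15.4, ASL 12.5, CPS1 4.77, NAGS 2.38, GLS2 0.190, ARG1 0.0918 and OTC 0.0757. In SOR cells it was GLUL 109.6, SLC25A13 28.1, ASS1 22.4, SLC25A15 15.3, ASL 11.03, CPS1 7.16, OTC 2.43, NAGS 2.15, ARG1 2.03 and GLS2 0.173. In Control cells it was GLUL 82.3, SLC25A13 31.4, ASS1 25.2, ASL 21.2, SLC25A15 12.8, CPS1 4.02, NAGS 3.87, ARG1 0.727, GLS2 0.186 and OTC 0.0700.

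Neighbours whose libraries overlapped in FPKM were ARG1 with GLS2 and GLS2 with OTC in SOR+NOB cells, GLS2 with ARG1 and ARG1 with OTC in NOB cells, OTC with NAGS and NAGS with ARG1 in SOR cells, and CPS1 with NAGS and GLS2 with OTC in Control cells. OTC was thus last of the 10 in 3 groups and seventh in SOR cells. ASL stood above SLC25A15 in Control cells and below it in each treated group. ASS1 stood above SLC25A13 in SOR+NOB cells and below it in the other groups.

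**Figure D3:**
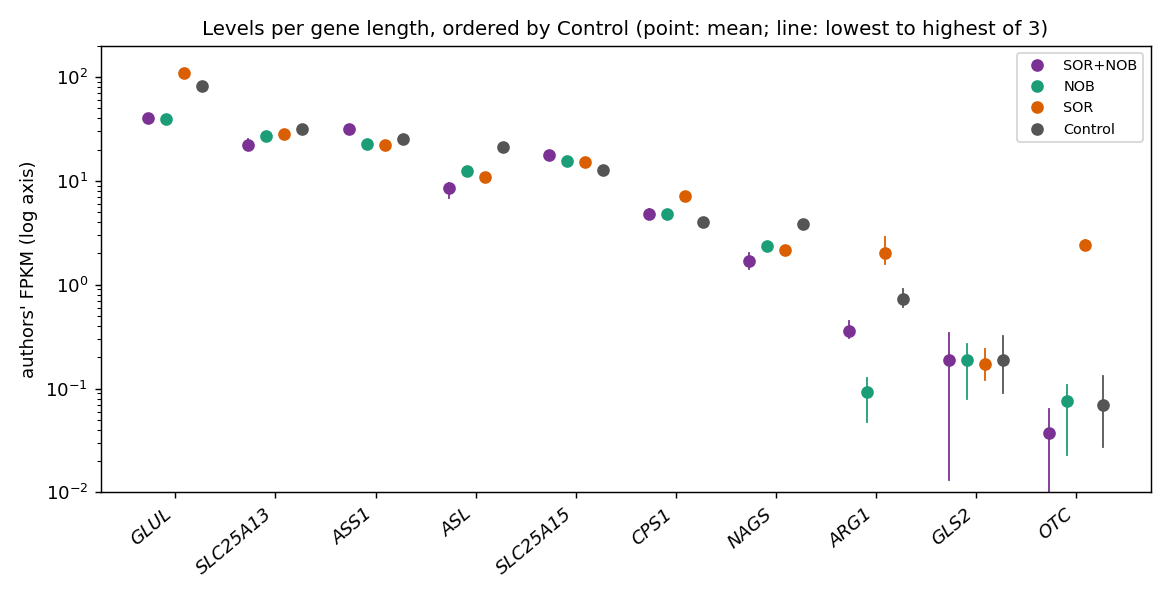
Authors' FPKM of each gene in the 4 groups on a log axis, ordered by the Control mean; points are means and lines run from the lowest to the highest of 3 libraries, with a library at 0 drawn to the lower edge. OTC is at 2.43 FPKM in SOR cells and is the lowest of the 10 in the other groups, and ARG1 spans 0.0918 FPKM in NOB to 2.03 FPKM in SOR cells.

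Among the treated groups, SOR+NOB differed from SOR in 8 of the 10 genes, where 63.0% of all tested genes were called. Of these, 2 were higher in SOR+NOB (ASS1 and SLC25A15; 31.4% of all genes) and 6 lower (CPS1, OTC, ASL, ARG1, SLC25A13 and GLUL; 31.6%). Against NOB, 6 of the 10 differed (60.7% of all genes), with ASS1, ARG1 and SLC25A15 higher in SOR+NOB (30.3%) and NAGS, ASL and SLC25A13 lower (30.4%). NOB and SOR cells differed in 4 of the 10 (40.5%). None was higher in NOB (19.8%) and CPS1, OTC, ARG1 and GLUL were lower (20.7%), with log2 differences of -0.58, -4.97, -4.41 and -1.47. In the comparisons of SOR+NOB with NOB and of NOB with SOR the share of the 10 genes is near that of all genes and is no result about the 10. The counts against SOR include OTC, which entered the test only through the SOR libraries, so its call supports nothing further.

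The effect of nobiletin was compared with and without sorafenib as an interaction, the log2 difference of SOR+NOB from SOR minus that of NOB from Control. It passed the test in 5 of the 10 genes, near the 52.0% of all tested genes. OTC (-6.03 ± 1.09, which rests on the SOR libraries that brought it past the filter), CPS1 (-0.81 ± 0.10, edgeR adjusted p = 8.93e-07) and GLUL (-0.37 ± 0.06, adjusted p = 3.8e-05) were negative, as were 26.9% of all genes. ASS1 (0.67 ± 0.09, adjusted p = 1.65e-06) and ASL (0.41 ± 0.14, adjusted p = 0.0149) were positive, as were 25.1% of all genes.

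For CPS1 the effect of nobiletin changed sign, with -0.55 ± 0.07 in sorafenib-treated cells and 0.26 ± 0.07 in cells without sorafenib. For ASS1 it was 0.52 ± 0.06 with sorafenib and -0.14 ± 0.06, not past the test, without. For ASL nobiletin lowered the gene less with sorafenib (-0.34 ± 0.10) than without (-0.75 ± 0.09). For GLUL it lowered the gene more with sorafenib (-1.42 ± 0.05) than without (-1.05 ± 0.04). For ARG1 the effects were -2.48 and -2.91 and the interaction, 0.43 with a 95% interval from -0.76 to 1.63, did not pass the test. Without the first SOR+NOB library the interactions of CPS1, GLUL, ASS1 and ASL were still called, at -0.89, -0.38, 0.72 and 0.54. That of OTC was -6.50 without this library, given as a description because OTC entered the test only through the SOR libraries. The interaction of SLC25A13 was called in that fit too (-0.23, edgeR adjusted p = 0.00503, against -0.12, adjusted p = 0.335, in all libraries).

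**Figure D4:**
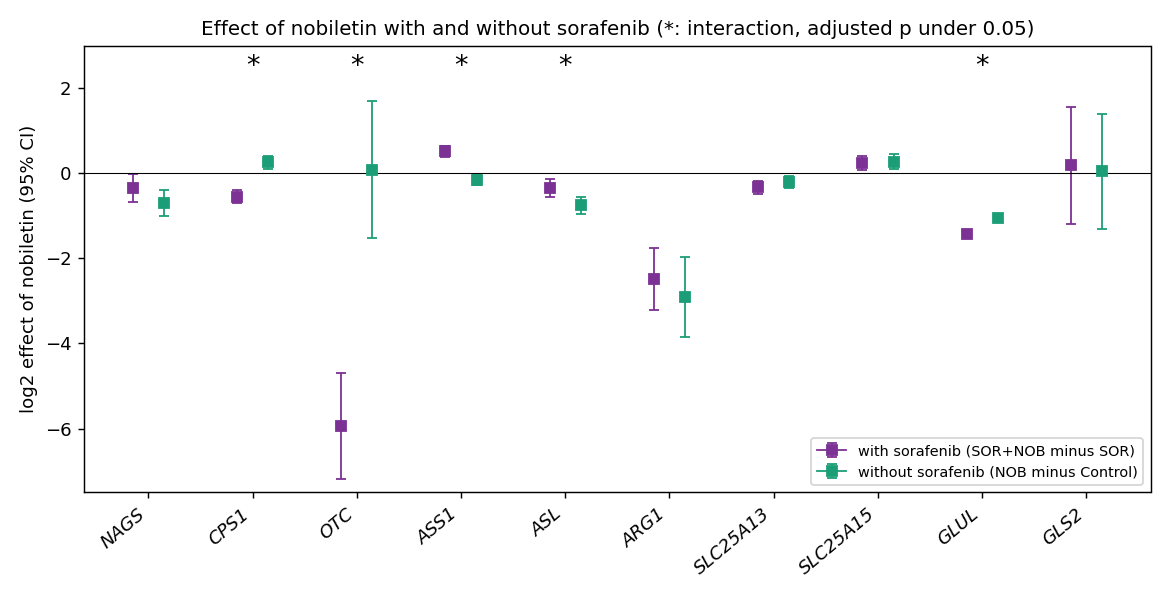
Log2 effect of nobiletin on each gene with sorafenib present (SOR+NOB minus SOR) and without (NOB minus Control), with 95% confidence intervals; an asterisk marks an interaction with adjusted p under 0.05. The effects on OTC are -5.94 and 0.09, those on CPS1 -0.55 and 0.26, and those on ARG1 -2.48 and -2.91. OTC entered the test only through the SOR libraries.

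The sum of the hepatocyte markers, like OTC, CPS1, ARG1 and GLUL, was highest in SOR cells. The summed CPM of the 13 markers ran from 33530 to 36180 in SOR+NOB, 31710 to 32270 in NOB, 83230 to 86740 in SOR and 46530 to 48640 in Control libraries. In SOR cells 10 of them rose and 3 fell (APOB, APOA2 and TTR), in NOB cells 2 rose and 9 fell, and in SOR+NOB against SOR all 13 fell. APOB and TTR were highest in Control cells (19331 and 233 CPM, against 15800 and 187 CPM in SOR cells). APOA2 was highest in NOB cells (2894 CPM, against 1916 CPM in SOR cells). Over all tested genes 21.7% rose and 19.3% fell in SOR, 18.9% rose and 19.2% fell in NOB, and 31.6% fell in SOR+NOB against SOR. ALB, for example, had log2 differences of 0.40 in SOR+NOB, -1.06 in NOB and 1.71 in SOR cells. Sums of the genes listed as markers of other cell types were lower and also moved. The stellate or fibroblast sum ran from 2.17 to 3.19 CPM in SOR+NOB, 8.08 to 10.2 CPM in NOB, 3.47 to 4.44 CPM in SOR and 23.0 to 24.7 CPM in Control libraries, most of it PDGFRB, which fell by 3.27 on the log2 scale in SOR+NOB, 1.33 in NOB and 2.63 in SOR cells, with COL3A1 at 0 in SOR+NOB, NOB and SOR and DCN at 0 in SOR+NOB, SOR and Control cells. The endothelial sum ran from 5.36 to 7.48 CPM in SOR+NOB, 12.02 to 13.6 CPM in NOB, 12.8 to 17.1 CPM in SOR and 12.2 to 15.8 CPM in Control libraries. CDH5 in it had 80 counts in SOR+NOB, 63 in NOB and 107 in SOR cells, against 3 in Control cells. It entered the test only through the treated groups, so these counts are a description. The bile duct sum ran from 407.4 to 425.1 CPM in SOR+NOB, 476.5 to 488.4 CPM in NOB, 566.7 to 575.1 CPM in SOR and 574.8 to 599.5 CPM in Control libraries, with KRT7 at 0 in all groups. The immune sum, nearly all of it LYZ, ran from 207.0 to 229.3 CPM in SOR+NOB, 705.3 to 722.1 CPM in NOB, 318.7 to 332.0 CPM in SOR and 594.8 to 620.4 CPM in Control libraries, with PTPRC at 0 in SOR+NOB, NOB and Control cells. The part of these changes in the results on the 10 genes was not tested.

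The profiles of the 10 genes were compared by the root-mean-square difference of log2 CPM, each centred on its own mean, over the 12 libraries. The closest pair among them was NAGS and ASL, at 0.163, followed by ASS1 and SLC25A15, at 0.200, and the most distant was OTC with GLS2, at 2.18. Among protein-coding genes that averaged 2 CPM or more, the profile closest to OTC was that of UNC93A (0.601), followed by AKR1D1 (0.712), a bile acid synthesis enzyme, and LEAP2 (0.897), a liver peptide hormone. The closest to ARG1 were AGXT (0.379), a peroxisomal aminotransferase of hepatocytes, ITIH1 (0.389), a plasma protein gene, and SULT2A1 (0.404), a liver sulfotransferase.

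For GLUL the closest were ZCCHC2 (0.0888), IRS1 (0.0913), an insulin receptor substrate, and FGA (0.0921), a fibrinogen chain. For CPS1 they were PGAP1 (0.0826), MYO5B (0.0832) and PRDX3 (0.0892). For ASL and NAGS the lists share ESRP2 (0.125 from ASL and 0.145 from NAGS), a splicing regulator of epithelial cells. For ASS1 they were TINF2 (0.0493), MRPS2 (0.0573) and PPP2R3B (0.0575). These are descriptions over 12 libraries of 4 groups and were given no test.

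Other genes of the pathway were taken from lists of related enzymes, carriers and regulators, whose counts are to be read against all tested genes, of which 32.2% rose and 32.0% fell in SOR+NOB, 18.9% rose and 19.2% fell in NOB, and 21.7% rose and 19.3% fell in SOR cells. Of 22 genes in the list of urea cycle genes and transporters, which holds the 8 cycle genes above, 18 were tested. In SOR+NOB cells 4 rose and 8 fell (median log2 -0.30), in NOB cells 2 rose and 8 fell (-0.17) and in SOR cells 7 rose and 7 fell (0.02). ARG2, the mitochondrial arginase, ran opposite to ARG1 in SOR cells: it fell by 2.08 on the log2 scale there and by 1.14 in NOB cells, and in SOR+NOB cells the difference was 0.10 and did not pass the test. Its interaction was 3.32. SIRT5, a mitochondrial deacylase known to act on CPS1, rose by 0.62 in SOR cells and fell by 0.64 in SOR+NOB cells. CA5A, the mitochondrial carbonic anhydrase that supplies bicarbonate to CPS1, rose by 0.55 in SOR cells and fell by 0.32 in SOR+NOB and 0.30 in NOB cells.

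Of 21 glutamine and glutamate enzymes 20 were tested, with 7 higher and 9 lower in SOR+NOB (32.2% and 32.0% of all genes), 7 and 6 in NOB (18.9% and 19.2%), and 7 and 6 in SOR cells (21.7% and 19.3%). GLUD1, glutamate dehydrogenase, rose by 1.77 in SOR cells, with differences of 0.14 (not past the test) in SOR+NOB and -0.18 in NOB cells; its near-identical retrocopy GLUD2 may share reads with it. ASNS, which makes asparagine from glutamine, rose by 1.27 in SOR+NOB and 1.01 in NOB cells. Of the 10 tested glutamine transporters, 7 fell and 2 rose in SOR+NOB, 7 fell and 2 rose in NOB, and 7 fell and 3 rose in SOR cells, where 32.0%, 19.2% and 19.3% of all genes fell. Their median log2 differences were -0.76, -0.35 and -0.46, against -0.02, 0.01 and 0.00 over all genes. The lists were chosen with earlier results of these data known, so these values are a description. SLC38A2 fell by 2.36 in SOR+NOB, 1.10 in NOB and 1.59 in SOR cells, and SLC3A2, the heavy chain of several amino acid exchangers, rose by 1.51 in SOR+NOB cells. The amidotransferases, which spend glutamine nitrogen in nucleotide and sugar synthesis, had 3 higher and 3 lower of 8 tested in SOR+NOB, 4 and 0 in NOB, and 2 and 3 in SOR cells, to be read against the same shares.

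Of 17 tested arginine, polyamine and creatine genes, 8 rose and 3 fell in SOR+NOB (32.2% and 32.0% of all genes), 4 rose and 4 fell in NOB (18.9% and 19.2%), and 6 rose and 6 fell in SOR cells (21.7% and 19.3%). ODC1, which turns ornithine into putrescine, rose by 2.22 in SOR+NOB and 0.52 in NOB cells and fell by 0.26 in SOR cells. GATM, which uses arginine for creatine, rose by 1.94 in SOR cells. The list of pericentral hepatocyte genes beside GLUL was mixed: of 14 tested, 5 rose and 5 fell in SOR+NOB, 2 rose and 8 fell in NOB, and 5 rose and 6 fell in SOR cells, beside the same shares of all genes. AXIN2, a Wnt target, rose by 0.56 in SOR+NOB and fell by 0.86 in NOB cells, and LGR5 fell by 1.32, 0.80 and 0.91 in SOR+NOB, NOB and SOR cells. SLC1A2, a glutamate carrier of the same zone, fell by 1.27 in SOR+NOB and 1.73 in NOB cells and rose by 0.86 in SOR cells.

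Of 26 regulators known for urea cycle genes, 14 rose and 7 fell in SOR+NOB (32.2% and 32.0% of all genes), 4 rose and 11 fell in NOB (18.9% and 19.2%), and 11 rose and 4 fell in SOR cells (21.7% and 19.3%). HNF4A rose by 0.70 in SOR cells and fell by 0.52 in SOR+NOB cells, and its NOB difference of 0.09 did not pass. CEBPA rose by 1.11 in SOR+NOB and 1.48 in SOR cells and fell by 0.41 in NOB cells. The glucocorticoid receptor gene NR3C1 fell by 0.86 in NOB cells, and its differences in SOR+NOB (-0.07) and SOR cells (-0.16) did not pass. PPARA rose by 0.37 in NOB and 0.98 in SOR cells and fell by 0.77 in SOR+NOB cells.

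**Figure D5:**
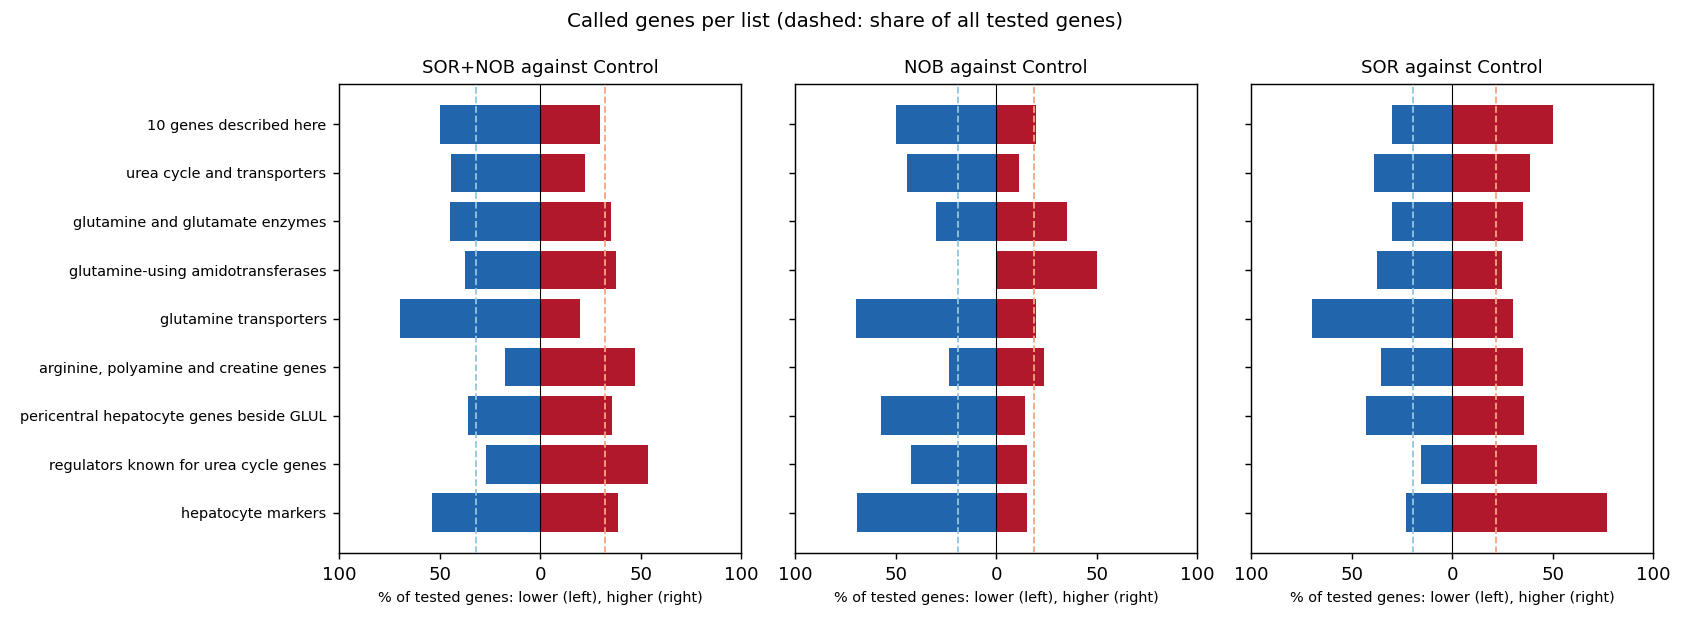
Share of the tested genes of each list that was called lower (left) or higher (right) in SOR+NOB, NOB and SOR cells against Control, in percent; dashed lines mark the shares over all 17115 tested genes. The 10 genes described are in the top row, and hepatocyte markers in the bottom row, with 10 of 13 higher in SOR cells.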

How the data were processed

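RNA was sequenced from 12 HepG2 libraries, isolated with TRIzol per the labels. The strand setting and the treatment of reads with several matches are not given in the sources used. Per the submitters' processing notes, HISAT2 2.0.5, featureCounts 1.5.0-p3 and GRCh38 were used. The deposited table holds raw counts per gene. The FPKM values were made by the authors and deposited in a second table. They were used only for levels per length and for an alternative test, of genes averaging 0.5 FPKM or more, which leaves out GLS2. Groups and replicate numbers come from the titles in the labels.

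edgeR 4.0.16 in R 4.3.3 was run on the counts (filterByExpr by group, TMM, robust quasi-likelihood fit with 1 mean per group on all 12 libraries, 8 residual degrees of freedom) in 7 comparisons, with Benjamini-Hochberg adjustment over 17115 genes. SE is the log2 difference divided by the square root of F. The code was tested on simulated data. As alternatives, RLE scaling, DESeq2 1.42.0, a replicate block, no filter, limma 3.58.1 on log2(FPKM + 1) and log2(FPKM + 0.1), protein-coding genes only, only the compared libraries, and leaving out each library were tried. Exonic overlap came from GENCODE 29, whose start and end matched those in the table for all 10 genes, and promoters from RefSeq (GRCh38.p14), which matched 10 of 10 genes. Figures were drawn with matplotlib. The rule for named genes took the 10 genes, up to 4 of each list with the smallest p in the comparisons with Control and the interaction, a fixed panel, and 3 genes of closest profile per member. Members and lists were chosen with earlier results of these data known. SLC1A2, SLC38A2, SLC3A2, GATM, PPARA and ALB come from the smallest p values of their lists. GLUD2, ASLP1, the hepatocyte markers that fell in SOR cells and the markers of other cell types were named after their values were seen. Intervals of count ratios and the limit of a count of 0 cover counting error only. A gene of the panel is not reported here.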

Additional observations from a re-analysis of the deposited data

Results flagged for a closer look

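In 5 of the 10 genes the effect of nobiletin differed with and without sorafenib by the interaction test in edgeR, with p adjusted over 17115 genes. The log2 difference, SOR+NOB minus SOR less NOB minus Control, was -0.81 for CPS1 (SE 0.10, adjusted p = 8.93e-07), -0.37 for GLUL (SE 0.06, adjusted p = 3.8e-05), 0.67 for ASS1 (SE 0.09, adjusted p = 1.65e-06) and 0.41 for ASL (SE 0.14, adjusted p = 0.0149). It was -6.03 for OTC (SE 1.09), which was at 5 counts or fewer in each library outside SOR cells and entered the test only through the 3 SOR libraries, so its call supports nothing further. Among all tested genes the interaction was called in 52.0%. The values per library stand in the report, and no cause was tested.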

How the results depend on the processing

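The number of the 10 genes called stayed within 1.5 times the reported one in every alternative and every fit without a library: 7 to 8 in SOR+NOB against Control (8 reported), 5 to 8 in NOB (7), 6 to 9 in SOR (8), 7 to 9 in SOR+NOB against SOR (8), 5 to 6 in SOR+NOB against NOB (6), 4 to 5 in NOB against SOR (4) and 5 to 6 in the interaction (5). The same held for the counts over all genes. Counts for comparisons that use SOR cells and for the interaction include OTC, whose call supports nothing further. Of the 40 sign changes none had either fit past the threshold.

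By DESeq2 GLS2 in SOR+NOB against NOB turned to -0.0131. With no filter, GLS2 turned to -0.00726 and CPS1 to -0.000194 in that comparison, and with protein-coding genes only GLS2 turned to -0.0401, CPS1 to -0.0323 and GLUL to -0.0114. With limma on FPKM the ARG1 interaction turned to -0.47 (pseudocount 1) and -0.0611 (0.1). With each library left out in turn, OTC ran from -0.28 to 0.86 in NOB, and GLS2 from -0.30 to 0.66 in NOB, -0.44 to 0.51 in SOR and -0.70 to 0.67 in SOR+NOB against Control. GLS2 ran from -0.58 to 0.70 against SOR and from -0.75 to 0.53 against NOB in SOR+NOB, from -0.17 to 0.52 in NOB against SOR and from -0.62 to 0.65 in the interaction. CPS1 ran from -0.0470 to 0.0910 in SOR+NOB against NOB, and in NOB against SOR ASS1 ran from -0.0159 to 0.0367 and SLC25A15 from -0.0196 to 0.0462. The cause was not tested.

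In limma on the log2(FPKM + 1) scale, which understates changes of low genes, OTC in SOR cells differed from Control by 1.68. ARG1 differed from Control by -0.66 in NOB and 0.79 in SOR cells, both still called. ARG1 in SOR+NOB (-0.34, adjusted p = 0.0747) and in SOR+NOB against NOB (0.31, adjusted p = 0.106) was not called. SLC25A13 in NOB lost its call with limma (adjusted p = 0.0506 and 0.0517), and with no filter ASS1 in SOR (adjusted p = 0.106) and SLC25A15 in SOR+NOB against SOR (0.0983) and NOB (0.144) lost theirs. The last was also lost with protein-coding genes only (0.0916) and only the compared libraries (0.07). ASS1 in NOB gained a call with DESeq2 (adjusted p = 0.0476), limma (0.0348 and 0.035) and only the compared libraries (0.0116). NAGS in SOR+NOB against SOR gained a call with limma (adjusted p = 0.0257 and 0.0231) and with protein-coding genes only (0.0346). With only the compared libraries, calls were also gained by SLC25A13 in SOR (adjusted p = 0.00135) and ASL in NOB against SOR (0.031). The labels' replicate numbers did not pair the libraries: deviations of same-numbered libraries correlated at -0.0087 (median of 18 pairs, -0.05 to 0.044), and 2 of 12 libraries correlated best with their own number. With a replicate block GLS2 turned to -0.11 in SOR+NOB against NOB and to -0.0295 in the interaction, and ASS1 in SOR against Control was at -0.16 with adjusted p = 0.0616. No other call of the 10 genes changed under the block. OTC had 5 counts or fewer in each library outside SOR cells, and GLS2 had 1 to 34 counts per library. The part of depth, of the spread between libraries and of the exonic bases shared with SPRYD4 was not tested.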
